A study of Homo sapiens with 4 samples.

Results

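Fibroblast growth factors (FGFs) and their receptors were followed in human embryonic stem cells that had begun to differentiate toward blood. The genes are the FGFs FGF2, FGF4, FGF8, FGF13, FGF17 and FGF19 and the receptors FGFR1, FGFR2, FGFR3 and FGFR4. They were picked by symbol, and all 10 were among the 17894 genes of the deposited RNA-SEQ tables. Every one of them was above the minimum of 1 FPKM as a mean over the libraries, which 12697 genes reached. FPKM is the number of sequenced fragments assigned to a gene, scaled for transcript length and for library depth, so that levels of different genes can be set side by side per length.

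The cells were H1, a human embryonic stem cell line, cultured on mAGM-S3, a mouse stromal cell line that supports blood formation, and the human cells were sorted at day 2 by TRA-1-85, an antigen of human cells. The series held 4 libraries. One was from untreated wild-type cells (control), and one from wild-type cells exposed to 20 ng/mL R-spondin2 during the first day. The other 2 were from LGR4-/- cells without added R-spondin2, here numbered 1 and 2 as in the labels. LGR4 is a cell surface receptor for R-spondins, which are secreted proteins that raise WNT signaling. All groups shared the H1 background, the stroma and the serum-containing differentiation medium. The headers of the deposited columns name them E1 and A3, but the labels did not state how the LGR4-/- lines were made or that they were separate clones, so that their spread may be technical. LGR4 RNA was measured at 21.77 FPKM in the control, 24.26 with R-spondin2, 7.40 in LGR4-/- 1 and 13.95 in LGR4-/- 2. It was thus lower in both LGR4-/- libraries but still present, at 34.0% and 64.1% of the control, and the allele is not described in the sources used here.

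FGFs that are secreted bind the extracellular part of FGF receptors together with heparan sulfate, and the paired receptors then phosphorylate one another and signal through the docking protein FRS2 to the RAS and MAP kinase cascade. In human embryonic stem cells FGF2 is added to the medium to keep cells undifferentiated, and during gastrulation FGF4, FGF8 and FGF17 are made in and around the primitive streak, the site where mesoderm forms. FGF13 belongs to a subfamily that stays inside the cell and does not act through these receptors, so it was left out of sums of secreted ligands.

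The promoters of FGF2, FGFR2 and FGFR4 are shown because these 3 genes were higher in both LGR4-/- libraries and had the smallest adjusted p values of the members, as described below. The sequences are from RefSeq on GRCh38.p14 and hold the part ahead of the first annotated transcript start. They are FGF2 at chr4:122826581-122826681 on the plus strand, FGFR2 at chr10:121598459-121598694 on the minus strand and FGFR4 at chr5:177086665-177086914 on the plus strand. Capitals mark the GC box, GGGCGG or its reverse complement CCGCCC, the site bound by SP1 family factors.
FGF2: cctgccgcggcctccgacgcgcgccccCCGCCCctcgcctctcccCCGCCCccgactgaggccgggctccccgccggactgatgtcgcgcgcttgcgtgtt
FGFR2: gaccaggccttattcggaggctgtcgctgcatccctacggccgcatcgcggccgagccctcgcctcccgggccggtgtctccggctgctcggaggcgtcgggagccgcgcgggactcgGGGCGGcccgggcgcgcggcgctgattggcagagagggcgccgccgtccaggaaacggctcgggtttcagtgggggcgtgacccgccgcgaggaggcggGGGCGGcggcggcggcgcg
FGFR4: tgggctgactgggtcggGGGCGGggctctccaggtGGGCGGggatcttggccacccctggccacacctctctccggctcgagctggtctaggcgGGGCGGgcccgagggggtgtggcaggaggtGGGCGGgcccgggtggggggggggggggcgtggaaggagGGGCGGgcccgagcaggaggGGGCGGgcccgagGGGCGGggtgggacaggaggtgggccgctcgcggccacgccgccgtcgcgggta
The table's windows run from 250 bases before to 50 bases after a start, and those that hold these stretches had a G and C content of 74.7% in FGF2, 79.3% in FGFR2 and 78.7% in FGFR4. The median over the 35116 promoters of the table was 58.67%. These windows held 3 GC boxes in FGF2, 5 in FGFR2 and 7 in FGFR4, and 45.0% of all promoters held at least 1. The table also lists 4 further FGFR2 promoters, of 47.3 to 50.7% G and C, and 1 further FGFR4 promoter of 57.3%. Of these, 1 FGFR2 window held 1 GC box and the others held none, and the data do not tell which promoter was in use. FGFR3, which did not share their pattern, held 8. The motif of TCF/LEF factors (ATCAAAG), through which WNT signals act, was searched on both strands and was absent from all of these windows, as were a T-box motif (TCACACCT) and an ETS motif (CCGGAAGT). They occur in 2.62%, 0.98% and 4.14% of all promoters. Of the members, 5 had an entry in the table, the fifth being FGF13. The GC box was added to the search after the sequences had been seen, and none of these matches is a binding measurement.

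All 10 genes were expressed in every library, between 7.92 and 128.19 FPKM. The ligand FGF17 and the receptor FGFR1 stood far above the others. In the control, FGF17 was at 95.22 FPKM and FGFR1 at 84.27, followed by FGF8 at 25.92, FGFR4 at 20.71, FGFR3 at 17.38 and FGFR2 at 15.52. FGF13 (13.36), FGF4 (13.17) and FGF2 (12.43) lay close together, and FGF19 was lowest at 7.92. The control has no replicate, so these neighbours cannot be ranked against a spread.

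In the 2 LGR4-/- libraries the order of the leading pair was the other way round, with FGFR1 at 99.3 ± 15.0 FPKM (SD, n = 2) above FGF17 at 65.4 ± 18.1. Their ranges did not overlap. Next came FGFR4 at 29.8 ± 2.79, FGFR2 at 25.8 ± 5.23 and FGF8 at 24.5 ± 5.05, whose ranges overlapped. FGF4 (19.2 ± 4.16) and FGF2 (18.6 ± 2.31) overlapped as well, as did FGFR3 (15.4 ± 2.65) and FGF13 (14.5 ± 2.67), and FGF19 was again lowest at 10.5 ± 1.80. FGF17 and FGFR1 exchanged ranks, and FGF2 moved from ninth of the 10 genes in the control to positions 6 and 7.

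**Figure D1:**
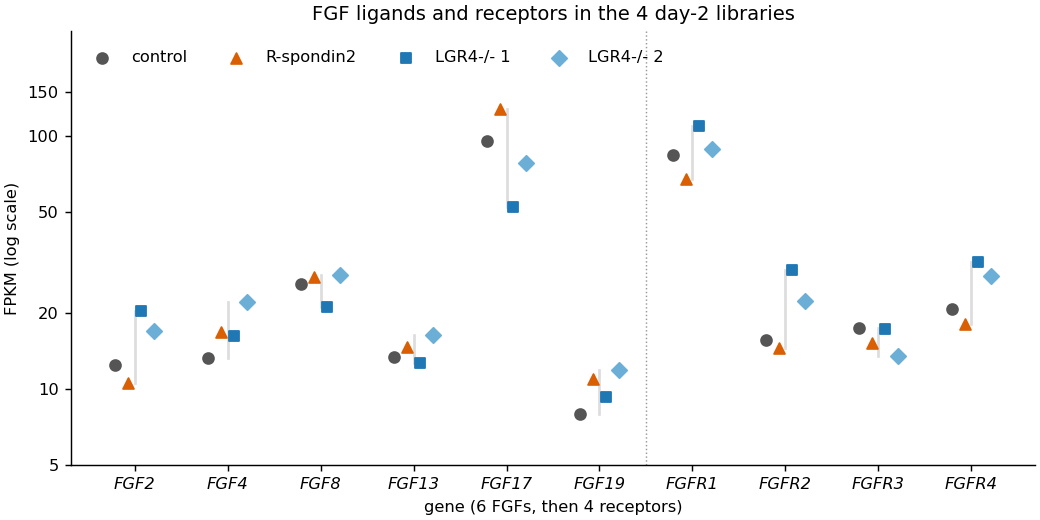
FPKM on a log axis for each of the 10 genes, with 1 point for each library and a grey line from the lowest to the highest. FGF17 and FGFR1 sit between 52.56 and 128.19 FPKM, and the other 8 genes between 7.92 and 31.79.

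No member passed 2-fold in any comparison. On the log2(FPKM + 1) scale, used for all differences given here, a 2-fold change was reached with R-spondin2 by 0.221% of all genes tested, in both LGR4-/- libraries in the same direction by 1.32%, and between the 2 LGR4-/- libraries by 0.252%. At 1.5-fold, 4 of 10 members passed in LGR4-/- 1 against control (FGF2, FGF17, FGFR2 and FGFR4), where 11.6% of all genes did. In LGR4-/- 2, 1 of 10 passed (FGF4), beside 7.03% of all genes. None passed 1.5-fold with R-spondin2, where the log2 differences of all genes tested had an SD of 0.213. The share of all genes past 1.5-fold there is not given, so this count does not set the members apart. The differences below are therefore modest, and fewer cells expressing a gene cannot be told apart from less RNA per cell in such bulk samples.

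FGF17, a ligand of the FGF8 subfamily, was at 95.22 FPKM in the control, 128.19 with R-spondin2, 52.56 in LGR4-/- 1 and 78.14 in LGR4-/- 2. It was highest with R-spondin2, and both LGR4-/- libraries were below both wild-type libraries. The log2 difference to the control was 0.43 with R-spondin2, -0.85 in LGR4-/- 1 and -0.28 in LGR4-/- 2. Counting error alone was smaller than each of these, with 95% intervals of the log2 ratio from 0.33 to 0.53, from -0.98 to -0.73 and from -0.40 to -0.17. These intervals rest on 798 to 1898 reads per library, computed from FPKM with the length of the transcript and an estimate of sequencing depth, and they do not include variation between cultures. FGF17 was the single member with both LGR4-/- libraries below both wild-type libraries, a pattern shown by 27.6% of all genes.

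FGF2, the ligand with which embryonic stem cells are maintained, was at 12.43 FPKM in the control, 10.52 with R-spondin2, 20.24 in LGR4-/- 1 and 16.98 in LGR4-/- 2. Both LGR4-/- libraries were above both wild-type libraries. The log2 difference to the control was 0.66 in LGR4-/- 1 and 0.42 in LGR4-/- 2, against -0.22 with R-spondin2. Without the added 1, the FPKM ratios to the control were 1.63 in LGR4-/- 1 and 1.37 in LGR4-/- 2. With 619 to 1220 implied reads, the counting intervals of all 3 log2 ratios excluded 0, the nearest bounds being 0.57, 0.31 and -0.08.

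FGF4 and FGF19 lie 66.4 kb apart on chromosome 11 in GENCODE 29 on GRCh38, FGF19 at 69698232 to 69704642 and FGF4 at 69771016 to 69775403, both on the minus strand. FGF4, an early ligand of pluripotent and streak cells, was at 13.17 FPKM in the control, 16.76 with R-spondin2, 16.22 in LGR4-/- 1 and 22.10 in LGR4-/- 2. FGF19, an endocrine ligand of FGFR4 in the adult, was at 7.92, 10.90, 9.26 and 11.81 FPKM in the same order. Both genes were lowest in the control and highest in LGR4-/- 2, with R-spondin2 second. The log2 difference to the control with R-spondin2 was 0.33 for FGF4 and 0.42 for FGF19, and in LGR4-/- 2 it was 0.71 and 0.52. In LGR4-/- 1 it was 0.28 and 0.20, and the counting interval of FGF19 there, from -0.07 to 0.53, included 0. FGF3 lies 34.6 kb beyond FGF4, and it was at 0.65, 0.75, 0.07 and 0.29 FPKM, below the expression minimum.

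FGF8, another streak ligand, was at 25.92 FPKM in the control, 27.78 with R-spondin2, 20.97 in LGR4-/- 1 and 28.11 in LGR4-/- 2. FGF13, the intracellular member, was at 13.36, 14.64, 12.60 and 16.37 FPKM. For both genes the 2 LGR4-/- libraries lay on either side of the control. The highest library was 1.34 times the lowest for FGF8 and 1.30 times for FGF13. With 117 to 171 implied reads, the counting interval of every log2 ratio to the control included 0 for both genes. The implied reads of genes with several transcripts, such as these, were computed from the shortest, which widens the interval of FGF13, whose transcripts run from 1039 to 19519 bases, while those of FGF8 run from 694 to 856.

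**Figure D2:**
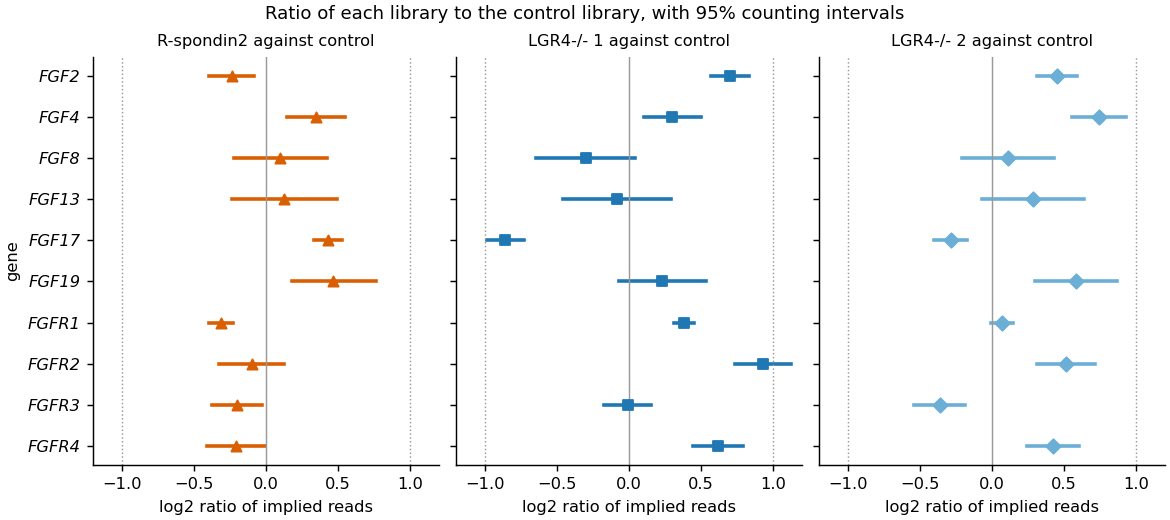
Log2 ratio of implied reads between each library and the control library for the 10 genes, with bars for the 95% Clopper-Pearson counting interval and dotted lines at 2-fold. FGF17 lies to the right of 0 with R-spondin2 and to the left in both LGR4-/- libraries. FGF2, FGF4, FGFR2 and FGFR4 lie to the right in both LGR4-/- libraries with bars that exclude 0. FGF19 and FGFR1 also lie to the right in both, but the bar includes 0 for FGF19 in LGR4-/- 1 and for FGFR1 in LGR4-/- 2.

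Among the receptors, FGFR1, the main FGF receptor of early mesoderm, was at 84.27 FPKM in the control, 67.78 with R-spondin2, 109.89 in LGR4-/- 1 and 88.69 in LGR4-/- 2. It was lowest with R-spondin2, and LGR4-/- 2 was close to the control. The log2 difference was -0.31 with R-spondin2, 0.38 in LGR4-/- 1 and 0.07 in LGR4-/- 2, and the counting interval of the last one included 0.

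FGFR2, a receptor whose splice forms are characteristic of epithelium or mesenchyme, was at 15.52 FPKM in the control, 14.44 with R-spondin2, 29.53 in LGR4-/- 1 and 22.14 in LGR4-/- 2. It showed the largest difference of the members in LGR4-/- 1, at 0.89 on the log2 scale, with a plain FPKM ratio of 1.90. In LGR4-/- 2 the difference was 0.49, and with R-spondin2 it was -0.10 with a counting interval from -0.33 to 0.12. Gene-level values do not separate the splice forms.

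FGFR4, the receptor that FGF19 acts through in the liver, was at 20.71 FPKM in the control, 17.96 with R-spondin2, 31.79 in LGR4-/- 1 and 27.85 in LGR4-/- 2. The 2 LGR4-/- libraries were closer to each other for FGFR4 than for any other member, differing by 0.18 on the log2 scale, against differences to the control of 0.59 and 0.41. FGFR3, best known for restraining bone growth, was at 17.38, 15.10, 17.26 and 13.51 FPKM. FGFR3 was highest in the control, level with it in LGR4-/- 1 (log2 difference -0.01) and lower in LGR4-/- 2 (-0.34). FGFR3 thus did not share the direction of the other receptors in the LGR4-/- cells.

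FGF2, FGFR1, FGFR2 and FGFR4 were higher in both LGR4-/- libraries than in both wild-type libraries, as were 34.4% of all genes. The same 4 members had their libraries in 1 order, LGR4-/- 1 highest, then LGR4-/- 2, the control and R-spondin2, which 17.1% of all genes tested also followed. FGF17 had exactly the reverse order, followed by 13.9% of all genes. These orders were counted after the values had been seen.

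Limma, with Benjamini-Hochberg adjustment over the 12697 genes and the difference between the LGR4-/- libraries as the single residual degree of freedom, called no member for LGR4-/- against control. The control has no replicate and was assumed to vary like the LGR4-/- pair. Limma also draws each gene's variance toward that of genes of similar level, with 4.05 prior degrees of freedom. The errors below are therefore not the spread of a gene's own pair. For FGF17 that pair had an SD of 0.40 on the log2 scale. The smallest adjusted p values were 0.124 for FGFR4 (log2 difference 0.50 ± 0.12, SE), 0.148 for FGF2 (0.54 ± 0.14) and 0.152 for FGFR2 (0.69 ± 0.18). FGF17 had an adjusted p of 0.288 with a difference of -0.56 ± 0.23, and FGF4 one of 0.276 with 0.49 ± 0.19. For the other members it was between 0.354 and 0.84. Across all genes limma called 0% here, although 2332 genes (18.4%) had an unadjusted p under 0.05. With a 5 FPKM minimum it called 230 genes up and 267 down, and after the libraries were rescaled to a common median ratio 124 up and 198 down, with no member among them. Over the alternative settings the adjusted p ranged from 0.0161 to 0.376 for FGFR4, from 0.0191 to 0.394 for FGF2, from 0.0191 to 0.437 for FGFR2 and from 0.0503 to 0.57 for FGF17. The low end of each range came from a different model, the fit of genotype alone described below. In the other settings the lowest were 0.0626 for FGFR4, 0.0778 for FGF2, 0.0708 for FGFR2 and 0.189 for FGF17. These came with the 5 FPKM minimum, and none passed 0.05.

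For R-spondin2 against control, the same fit gave adjusted p values of 0.992 to 0.997 for the members. It called 0% of all genes, with 481 (3.79%) at an unadjusted p under 0.05. Here the 2 lone libraries were assumed to vary like the LGR4-/- pair. When the R-spondin2 library was counted as a second wild-type library and genotype alone was fitted, limma called 14.7% of all genes and 3 of 10 members. FGF2 (0.65 ± 0.12, adjusted p = 0.0191), FGFR2 (0.73 ± 0.14, adjusted p = 0.0191) and FGFR4 (0.60 ± 0.10, adjusted p = 0.0161) were higher in LGR4-/- cells in that fit. The R-spondin2 library was treated and is not a replicate of the control, so this difference mixes genotype with treatment. With R-spondin2 the difference to the control was -0.22 for FGF2, -0.10 for FGFR2 and -0.20 for FGFR4. This enlarges their LGR4-/- differences in the genotype fit. FGF17 did not pass the threshold of 0.05, with a difference of -0.78 and an adjusted p of 0.0503.

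Summed over the secreted ligands FGF2, FGF4, FGF8, FGF17 and FGF19, the level was 154.66 FPKM in the control, 194.15 with R-spondin2, 119.25 in LGR4-/- 1 and 157.14 in LGR4-/- 2. The receptors summed to 137.88, 115.28, 188.47 and 152.19 FPKM. The ratio of ligand to receptor RNA was accordingly 1.12 in the control, 1.68 with R-spondin2, 0.633 in LGR4-/- 1 and 1.03 in LGR4-/- 2. Ligand RNA outweighed receptor RNA most with R-spondin2, and LGR4-/- 1 was the library with more receptor than ligand RNA. LGR4-/- 2 differed little from the control in this ratio, so that the LGR4-/- libraries did not share a shift beyond their own spread.

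The mixture of ligands also differed. FGF17 made up 61.6% of secreted ligand RNA in the control and 66.0% with R-spondin2, but 44.1% and 49.7% in LGR4-/- 1 and 2. FGFR1 made up 61.1%, 58.8%, 58.3% and 58.3% of receptor RNA. The share of the leading receptor was thus nearly level over the libraries, while that of the leading ligand was lower in both LGR4-/- libraries than in both wild-type libraries.

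**Figure D3:**
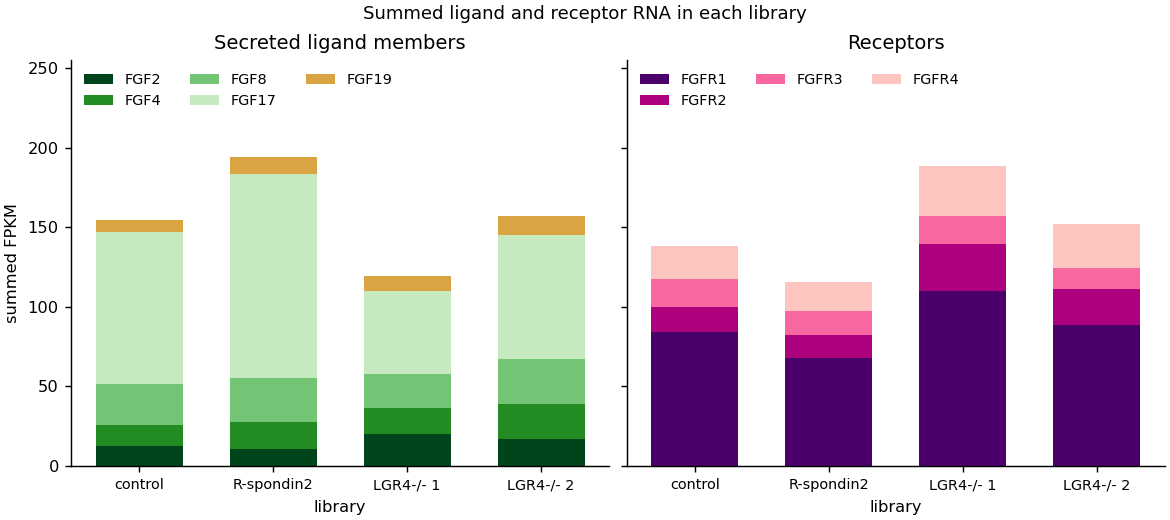
Summed FPKM of the secreted ligands (left) and of the receptors (right) in each library, stacked by gene from 0. The FGF17 block is tallest with R-spondin2 (128.19) and shortest in LGR4-/- 1 (52.56), and the receptor bar is tallest in LGR4-/- 1 (188.47).

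R-spondin2 against control and LGR4-/- 2 against LGR4-/- 1 share no library, and every member had the same sign in both. All 4 receptors and FGF2 were lower with R-spondin2 and lower in LGR4-/- 2 than in LGR4-/- 1, and FGF4, FGF8, FGF13, FGF17 and FGF19 were higher in both. Of all genes tested, 59.2% had the same sign in both comparisons. The differences with R-spondin2 were 0.43 for FGF17, 0.42 for FGF19, 0.33 for FGF4, 0.12 for FGF13 and 0.10 for FGF8. Between the LGR4-/- libraries the values for those genes were 0.56, 0.32, 0.42, 0.35 and 0.41. For the receptors FGFR1 to FGFR4 the R-spondin2 differences were -0.31, -0.10, -0.19 and -0.20, and those between the LGR4-/- libraries -0.31, -0.40, -0.33 and -0.18. This grouping was noticed after the values had been seen, each difference is between single libraries, and it has no test.

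**Figure D4:**
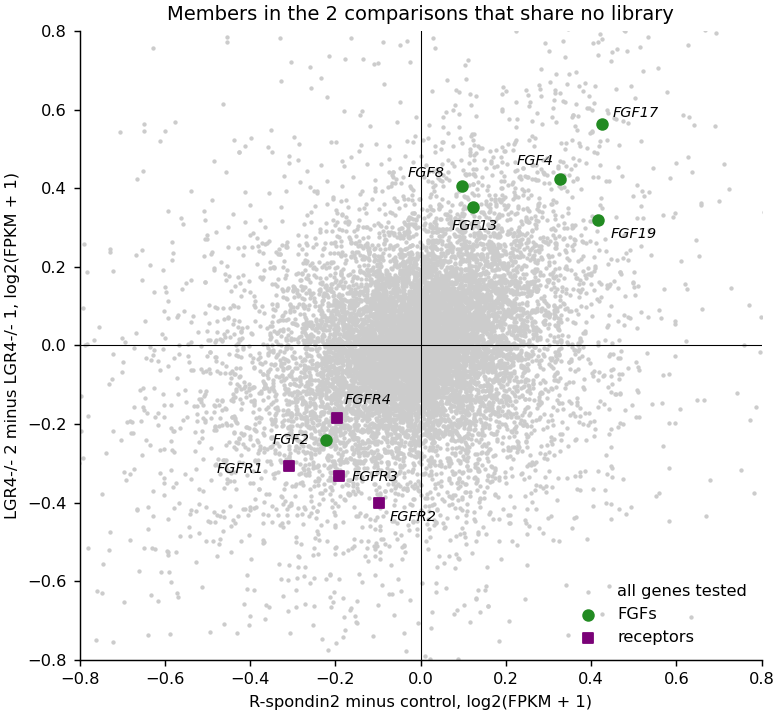
Difference in log2(FPKM + 1) between R-spondin2 and control (horizontal) and between LGR4-/- 2 and LGR4-/- 1 (vertical), with the 10 genes over all genes tested, both axes drawn from -0.8 to 0.8. The receptors and FGF2 lie in the lower left field and the other 5 FGFs in the upper right field, reaching 0.43 and 0.56 for FGF17.

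Markers of cell state moved with the same libraries. All 8 pluripotency markers were higher in both LGR4-/- libraries than in the control and 7 of 8 were lower with R-spondin2, their sum being 1389 FPKM in the control, 1145 with R-spondin2, 2210 in LGR4-/- 1 and 2068 in LGR4-/- 2. SOX2, a transcription factor of pluripotent cells, was at 19.89, 5.58, 65.99 and 50.67 FPKM, and PRDM14, another one, at 7.59, 3.59, 26.75 and 20.52. POU5F1 was the highest of the list, from 445.83 to 1067.9 FPKM. The order of libraries of FGF2, FGFR1, FGFR2 and FGFR4 was that of 5 of these 8 markers.

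All 12 primitive streak and mesoderm markers were lower in both LGR4-/- libraries than in the control, 11 of 12 were higher with R-spondin2, and all 12 were higher in LGR4-/- 2 than in LGR4-/- 1. Their sum was 1179 FPKM in the control, 1538 with R-spondin2, 420.92 in LGR4-/- 1 and 648.14 in LGR4-/- 2. The order of libraries of FGF17 was that of 11 of these 12 markers. The largest difference was that of HAND1, a mesoderm transcription factor, at 70.05, 99.85, 8.59 and 19.76 FPKM, and MIXL1, a streak transcription factor, was the highest at 376.64, 528.19, 173.59 and 257.45. MESP1, MESP2, TBX6, MSGN1, APLNR, PDGFRA and EOMES also passed 2-fold in at least 1 LGR4-/- library, all lower. The part of this difference in cell state in the levels of FGF17, FGF2 and the receptors was not tested.

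Markers of other cells were measured as well. Of 5 endoderm markers, GATA6 was highest, at 140.57 FPKM in the control, 186.79 with R-spondin2, 39.52 in LGR4-/- 1 and 61.19 in LGR4-/- 2, and FOXA1 was near 0. Of the 4 above the minimum, 3 were lower in both LGR4-/- libraries than in the control and FOXA2 was higher, at 9.05, 8.44, 11.88 and 11.64 FPKM. Of 5 neuroectoderm markers, OTX2, which the epiblast also makes, was the single one above the minimum, from 35.85 to 54.90 FPKM, and SOX1 was at most 0.03. The 8 stromal markers summed to between 216.42 and 297.43 FPKM, with COL1A2 highest, DCN and POSTN at most 0.39 and LUM at 5.49, 9.11, 0.16 and 1.45. Of the 6 above the minimum, 2 were higher than the control in LGR4-/- 1 and 3 in LGR4-/- 2, COL1A1 (63.96, 83.60, 74.76 and 74.61 FPKM) and THY1 (43.99, 36.07, 54.28 and 64.51) in both. Their part in the members' levels was not tested.

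The 16 remaining FGF genes were mostly silent. Values were given for 15 of them, and 6 were above the minimum. FGF10, a ligand of FGFR2 in the lung and limb, was the single FGF gene to pass 2-fold in both LGR4-/- libraries, at 5.20 FPKM in the control, 4.20 with R-spondin2, 1.11 in LGR4-/- 1 and 1.51 in LGR4-/- 2. Its log2 differences to the control were -1.56 in LGR4-/- 1 and -1.30 in LGR4-/- 2, from 22 and 29 implied reads there. FGFR2 was higher than the control in both of these libraries, but a relation between the genes was not tested. FGF11, an intracellular relative of FGF13, was at 4.52, 3.85, 6.39 and 5.40 FPKM, in the same order of libraries as FGFR2. FGF5, FGF7, FGF12 and FGF18 stayed between 0.69 and 1.57 FPKM. The sum of all 15 was between 12.93 and 17.70 FPKM, far below that of the members.

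Of 9 co-receptors and binding proteins, 4 were above the minimum. FGFBP3, a secreted carrier of FGFs, was at 11.64 FPKM in the control, 6.78 with R-spondin2, 24.01 in LGR4-/- 1 and 22.86 in LGR4-/- 2. On the log2(FPKM + 1) scale it stood just below 2-fold in both LGR4-/- libraries (0.98 and 0.92) and lower with R-spondin2 (-0.70). Each was larger than any difference of a member in the same comparison. The plain FPKM ratio to the control was 2.06 in LGR4-/- 1 and 1.96 in LGR4-/- 2. FLRT3, a membrane protein that binds FGF receptors, was at 6.05, 7.69, 2.23 and 4.43 FPKM and passed 2-fold downward in LGR4-/- 1. FLRT2 (2.52, 2.68, 1.60 and 2.35) and FGFRL1, a receptor without a kinase domain (12.41, 13.59, 10.73 and 10.27), were both somewhat lower in the LGR4-/- libraries. KLB, the co-receptor of FGF19, was at 0.56, 0.69, 1.00 and 1.10 FPKM, below the minimum as a mean, and KL, the co-receptor of FGF23, was at most 0.05.

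The genes that carry the signal inside the cell differed little. All 24 were expressed, none passed 2-fold in any comparison, and the median log2 difference was 0.06 with R-spondin2, -0.08 in LGR4-/- 1 and -0.02 in LGR4-/- 2, beside -0.01, 0.02 and 0.02 over all genes tested. The largest downward differences from the control in the LGR4-/- cells were those of GAB2, AKT1 and PIK3R1. The adaptor GAB2 was at 7.62, 8.82, 4.38 and 4.32 FPKM and the kinase AKT1 at 55.63, 64.31, 34.33 and 39.64. The phosphoinositide 3-kinase subunit PIK3R1 was at 12.97, 11.74, 8.12 and 8.55. These 3 act on the phosphoinositide 3-kinase branch of FGF signaling. The kinase BRAF was at 3.92, 4.92, 4.90 and 5.70 FPKM, the adaptor SHC1 at 75.16, 86.31, 87.17 and 90.59 and the ubiquitin ligase CBL at 12.42, 11.05, 15.96 and 14.04, the largest differences upward. With R-spondin2 the largest upward were those of BRAF (0.27), MAP2K1 (0.25) and AKT1 (0.21), and downward differences included those of CBL (-0.16) and PIK3R1 (-0.13). FRS2, the docking protein of the receptors, was between 5.20 and 5.70 FPKM in all 4 libraries.

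Feedback inhibitors and transcriptional targets of FGF signaling gave a mixed picture, with 15 of 16 expressed and a median log2 difference of 0.08 with R-spondin2, -0.15 in LGR4-/- 1 and 0.00 in LGR4-/- 2. DUSP5, a nuclear phosphatase of ERK, was at 45.16 FPKM in the control, 49.25 with R-spondin2, 20.91 in LGR4-/- 1 and 28.14 in LGR4-/- 2, and it was the single gene of the list past 2-fold, in LGR4-/- 1. DUSP4, a related phosphatase, did not reach 2-fold, at 9.55, 10.19, 4.87 and 6.21 FPKM, whereas DUSP6, a cytoplasmic phosphatase of ERK, was at 15.72, 17.54, 20.55 and 25.06. The ETS factor ETV1 was at 7.26, 5.36, 9.54 and 9.32 FPKM, and SPRED2, an inhibitor of the MAP kinase cascade, at 14.78, 16.75, 10.70 and 12.65. SPRED3 was at 0.98, 0.79, 1.53 and 1.31. With R-spondin2 the inhibitor SPRY1 had a log2 difference of -0.49, the immediate early gene FOS one of -0.47 and ETV1 and EGR1 one of -0.38 each, while SPRY4 had 0.24, IL17RD 0.18 and SPRED2 0.17. DUSP5 and DUSP4 were lower and DUSP6 higher than the control in both LGR4-/- libraries. DUSP6 was highest in LGR4-/- 2, whereas FGF2 and FGFR2 were highest in LGR4-/- 1. A relation of these genes to the members' levels was not tested.

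**Figure D5:**
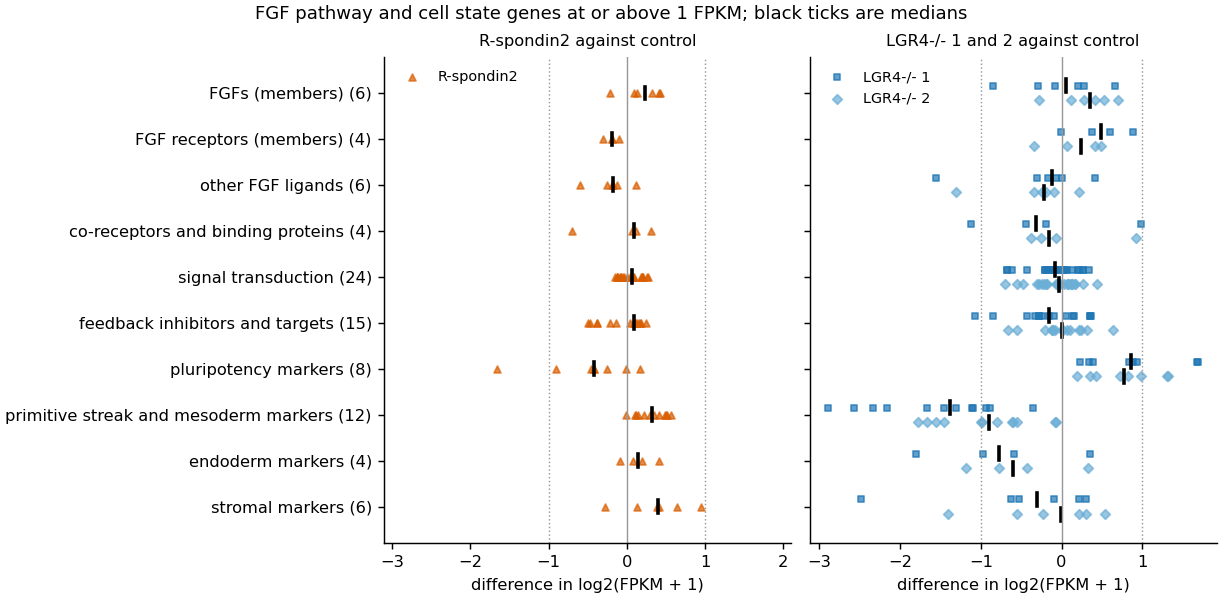
Difference in log2(FPKM + 1) to the control with R-spondin2 (left) and in LGR4-/- 1 and 2 (right), with 1 point per gene at or above 1 FPKM, black ticks at the median of each list and the number of genes in parentheses. The medians of signal transduction genes lie between -0.08 and 0.06, while those of mesoderm markers reach -1.38 in LGR4-/- 1.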

How the data were processed

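RNA-SEQ was measured in 4 libraries: 1 control, 1 R-spondin2 and 2 LGR4-/-, grouped by their labels. The authors deposited FPKM to 2 decimals per gene, without counts; the submitters' processing notes name BWA, Bowtie, RSEM and hg19 without versions. Coordinates are GENCODE 29 on GRCh38, not those of the authors' files. The members and lists were chosen with earlier results of these data known.

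Genes at 1 FPKM or more on average were compared as log2(FPKM + 1). A pseudocount lowers the differences of weakly expressed genes. Limma (3.58.1, R 4.3.3, with trend) was fitted to all 4 libraries in 3 groups, and the code was tested on simulated data. Depth was estimated from FPKM under 0.6 of transcripts under 1500 bases, taken as whole reads: 8900000, 8680000, 8900000 and 8780000 reads for control, R-spondin2, LGR4-/- 1 and LGR4-/- 2. At these depths 76.8 to 79.1% of such values came within 0.2 of a whole read, against 35.9 to 39.8% with shuffled lengths. Clopper-Pearson intervals cover counting error only. Computations used Python 3.11.15, numpy 2.4.6, pandas 2.3.3 and scipy 1.17.1. The named genes were the members, LGR4, the FGF, co-receptor and binding protein genes above the minimum, list genes past 2-fold, the 3 largest rises and falls per pathway list and the highest gene per marker list; FGF3, FRS2, KL, KLB, FOXA1, FOXA2, SOX1, COL1A1, THY1, DCN and POSTN were added after their values were seen. One gene that this rule names is not reported here. Alternatives were a pseudocount of 0.1, no or a 5 FPKM minimum, rescaling, 1.5-fold, no trend, genotype alone and each LGR4-/- library left out; rescaling, and the smaller pseudocount in the count of members with the same sign in both library pairs, were added after seeing the data.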

Additional observations from a re-analysis of the deposited data

How the results depend on the processing

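Of 196 recomputed values, 155 for single genes and 35 counts of members were scored as unchanged. With R-spondin2 and between the LGR4-/- libraries, a difference was so scored if it moved by no more than its counting error. For LGR4-/- against control, it had to keep its direction and its side of the adjusted p threshold. With an LGR4-/- library left out, only a reversed direction could change the score. Filters on low values leave the differences themselves as they were, so part of this tally was fixed in advance. No member passed 2-fold in the counts with R-spondin2, in both LGR4-/- libraries or between them under any alternative. With genotype alone fitted, which counted the treated R-spondin2 library as wild type, limma called 3 members in place of 0, namely FGF2, FGFR2 and FGFR4. Without LGR4-/- replicate 1 and without LGR4-/- replicate 2, the LGR4-/- difference was 0.11 and -0.29 for FGF8 and 0.27 and -0.078 for FGF13, in place of -0.09 and 0.10. Over all genes, limma for LGR4-/- against control called 230 up and 267 down with a 5 FPKM minimum, 124 up and 198 down after rescaling and 1015 up and 847 down with genotype alone, in place of 0. With an LGR4-/- library left out, the limma model could not be fitted, since no residual degree of freedom remained. No paired analysis was possible because the control and R-spondin2 have 1 library each. What depth limits is given by the counting intervals: that of FGF19, with 172 to 254 implied reads from a single transcript, included 0 in LGR4-/- 1.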
